A study of Mus musculus with 16 samples.

Results

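Tcf4 is a long gene that gained H3K9me3 over its interior in small intestinal crypts of mice lacking Smarcad1, and the description here follows that gain peak by peak. The members were all H3K9me3 peaks on chromosome 18 between positions 68900000 and 70200000 of GRCm38, a window of 1.3 Mb with Tcf4 and both flanks. It held 26 of the 212313 H3K9me3 peaks of the series, of which 18 overlapped Tcf4, 2 lay upstream and 6 downstream. The window was chosen by the H3K9me3 values of these same 6 libraries, in which peaks over Tcf4 were higher in KO than in WT. The H3K9me3 differences between genotypes are therefore a description. Calls mark which peaks passed a threshold in a fit over all peaks, and they are not evidence for the gain. The window also held 33 of the 47065 H3K9me2 regions, which the choice did not use.

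Each mark was profiled by chromatin immunoprecipitation with sequencing (ChIP-seq) in 3 WT and 3 KO libraries with 1 input library per genotype. WT mice were wild type on a C57BL/6 background. KO mice, on the same background, carried Smarcad1 alleles with loxP sites around exons needed for ATP binding, which a Cre recombinase under the Villin promoter removes in intestinal epithelium. Whole crypt isolates were used without cell sorting, so a mark that is higher in every cell and one that is higher in some of the cells cannot be told apart. The labels give neither age nor whether libraries of 1 group came from separate mice. The study calls its H3K9me3 replicates biological, but for H3K9me2 the spread between libraries may be partly technical. The crypt label could not be checked against marker genes, since the libraries hold DNA and not RNA.

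Tcf4 encodes a basic helix-loop-helix transcription factor of the E protein family, which binds E-box DNA as a dimer with itself or with tissue-restricted helix-loop-helix partners, while Id proteins sequester it. It is known for roles in plasmacytoid dendritic cells, lymphocytes and the nervous system. It should not be confused with Tcf7l2, the Wnt effector of the crypt, whose protein is often also written TCF4. H3K9me3 is a mark of repressed chromatin that recruits HP1 proteins and is known for silencing repeats and for holding lineage genes inactive. H3K9me2 is the related mark, usually found in broader domains. Smarcad1 is an ATP-dependent chromatin remodeler known to help maintain heterochromatin.

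H3K9me3 reads in peaks ranged from 7030073 in KO replicate 1 to 11838595 in KO replicate 2, and the median peak held 23 to 38 reads per library. The inputs held 8838386 (WT) and 8452186 (KO) reads in the same peaks. H3K9me2 reads in regions ranged from 18986927 to 39080740. Peak values below are the deposited log2 reads per peak, in which the 6 ChIP libraries were matched in distribution, unless reads are named. A peak was called higher or lower in KO when its adjusted p in a limma fit over all peaks was under 0.05, and changes are log2 KO minus WT with their standard errors (SE).

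Tcf4 (ENSMUSG00000053477.17) covers 345.7 kb on the forward strand, chromosome 18, positions 69343356 to 69689079. Of its 18 peaks, 15 were called higher in KO, none was called lower and 3 were not called. Over all 212313 peaks, 0.252% were called higher and 2.46% lower. All 3 KO libraries lay above all 3 WT libraries in 16 of the 18 peaks, a pattern found in 7.3% of all peaks. They lay below all WT libraries in 1 peak and overlapped them in 1. The median change over the 18 peaks was 1.75, with a range from −0.70 to 2.79, against a median of 0.028 over all peaks. At an unadjusted p under 0.05, 1 of the 18 peaks was lower by limma, 1 by edgeR and 0 by DESeq2 on recovered reads, where 6.75%, 7.18% and 4% of all peaks were lower. These counts describe how the window was chosen and nothing is read from them.

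**Figure D1:**
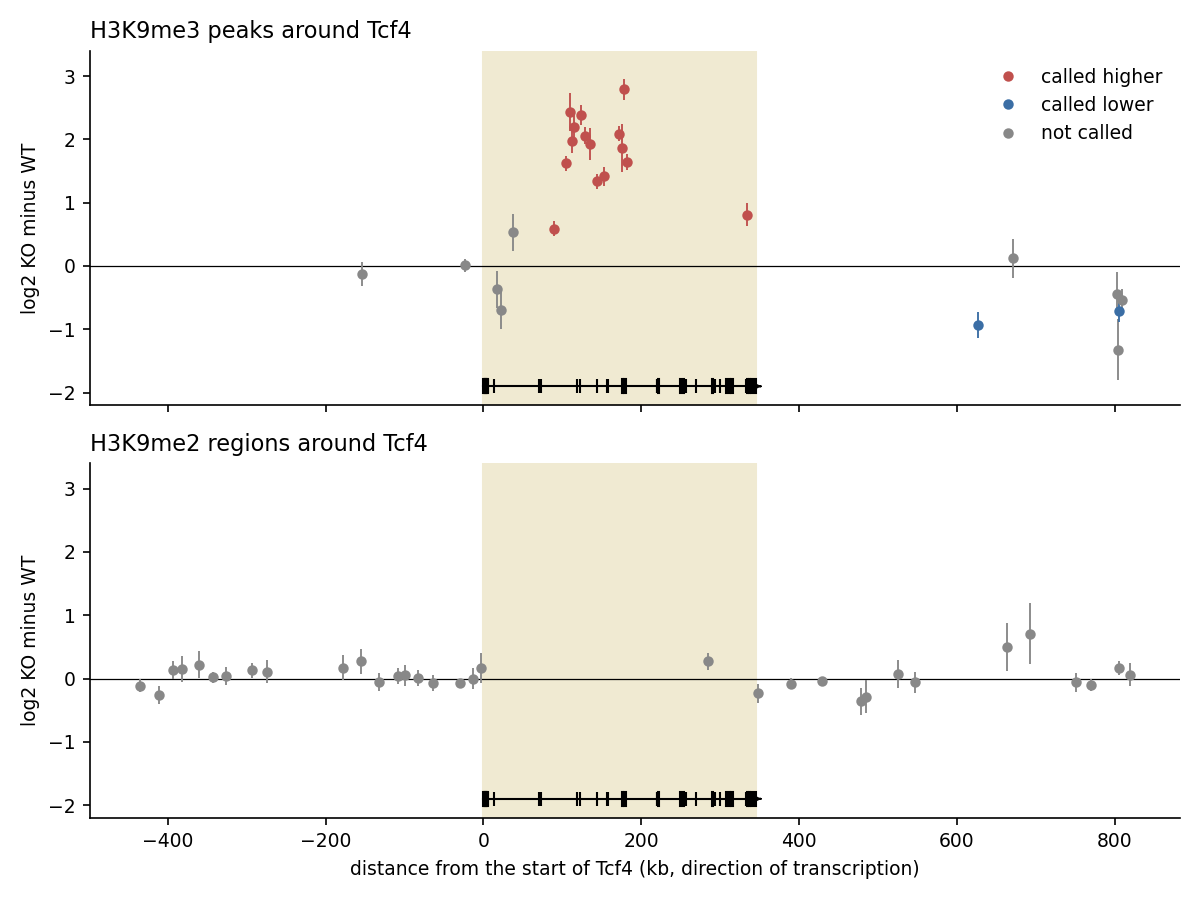
Log2 change (KO minus WT) of each H3K9me3 peak (top) and each H3K9me2 region (bottom) against distance from the start of Tcf4 in kb. Bars are standard errors of the fit, red and blue mark peaks called higher or lower, grey those not called, the shaded band is Tcf4 and black boxes are its exons. The called H3K9me3 peaks inside Tcf4 stand between 0.59 and 2.79, flanking peaks between −1.32 and 0.12, and no H3K9me2 region was called.

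The gain was not spread evenly over the gene. It was concentrated in 14 neighbouring peaks from position 69431101 to 69528450, a stretch of 97.35 kb that starts 87.7 kb and ends 185.1 kb after the start of Tcf4 and makes up 28.2% of the gene. The limits of this stretch were drawn after its values were seen, and a called-higher peak 148.2 kb past its end was left out of it. Peaks covered 57.6% of it, and the widest gap between neighbours was 14550 bp. All 14 were called higher, with changes from 0.59 to 2.79 and a median of 1.95. The change was at least 1 in 13 of them and at least 2 in 6. The lowest KO library exceeded the highest WT library by 0.24 to 2.65 on the log2 scale.

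The first 3 peaks of Tcf4, within 37.3 kb of its start, were not called. The peak at 69359851 to 69360450 had a mean of 4.36 ± 0.35 in WT and 3.99 ± 0.09 in KO (SD, n = 3). The second, at 69365851 to 69366600, had the lowest change of all peaks in the gene. Its values were 4.71, 4.75 and 4.39 in WT and 3.47, 4.24 and 4.05 in KO, a change of −0.70 (SE 0.29). All KO values there were below all WT values, a pattern found in 8.21% of all peaks. The third, at 69379951 to 69380700, was the nearest uncalled peak before the stretch. It had 3.83, 4.23 and 3.78 in WT and 4.57, 4.59 and 4.28 in KO, so that the genotypes did not overlap, with a change of 0.53 (SE 0.29). These peaks are short and held between 8 and 29 reads per library.

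After 50400 bp without a peak, the first peak called higher ran from 69431101 to 69435150, in an intron. The uncalled peak before it changed by 0.53 (SE 0.29) on 16 to 28 reads per library, so the start of the gain is not settled. At the called peak, WT values were 6.70, 6.96 and 6.80 and KO values 7.20, 7.61 and 7.41, a change of 0.59 (SE 0.12). This was the smallest change among the called peaks of the gene and the highest WT level among them. The next peak, at 69444601 to 69452100, already changed by 1.62 (SE 0.12), from 6.67 ± 0.38 to 8.29 ± 0.12 (SD, n = 3). From there to 69479250 the 7 peaks changed by 1.62 to 2.43. All of these were intronic.

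Peaks over transcript starts and exons inside the gain were described singly. GENCODE M21 lists 62 Tcf4 transcripts with 58 distinct start sites, of which 23 lie before the stretch, 19 in it and 16 after it. The gene start itself was covered by no peak. The largest change of the locus was at the peak from 69520051 to 69523050, which holds 9 of the start sites. Its values were 4.24, 4.31 and 4.19 in WT and 6.99, 7.16 and 6.96 in KO, a change of 2.79 (SE 0.17). In recovered reads, WT libraries had 21, 19 and 21 reads and KO libraries 88, 168 and 126, beside 58 and 77 in the WT and KO inputs. The libraries of each genotype were close to each other and far from those of the other.

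The short peak just before it, at 69519151 to 69519750, holds 2 start sites. WT values were 3.93, 2.90 and 1.83 and KO values 4.81, 4.30 and 5.14, a change of 1.87 (SE 0.38). The WT libraries were widely spread there, on 17, 7 and 4 reads. DESeq2 on recovered reads gave this peak no adjusted p and so could not call it. The peak that followed, at 69523051 to 69528450, overlaps 1 exon without coding sequence and closed the stretch. It had 6.48, 6.18 and 5.86 in WT and 7.68, 8.00 and 7.76 in KO, a change of 1.64 (SE 0.13). This was below the stretch median of 1.95, and the gain was still present at the last peak before the gap. The peak at 69483451 to 69490650 also overlaps 1 noncoding exon, with 6.84, 6.75 and 6.42 in WT and 7.85, 8.25 and 7.93 in KO, a change of 1.34 (SE 0.12). The remaining 10 peaks of the stretch overlap no annotated exon.

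**Figure D2:**
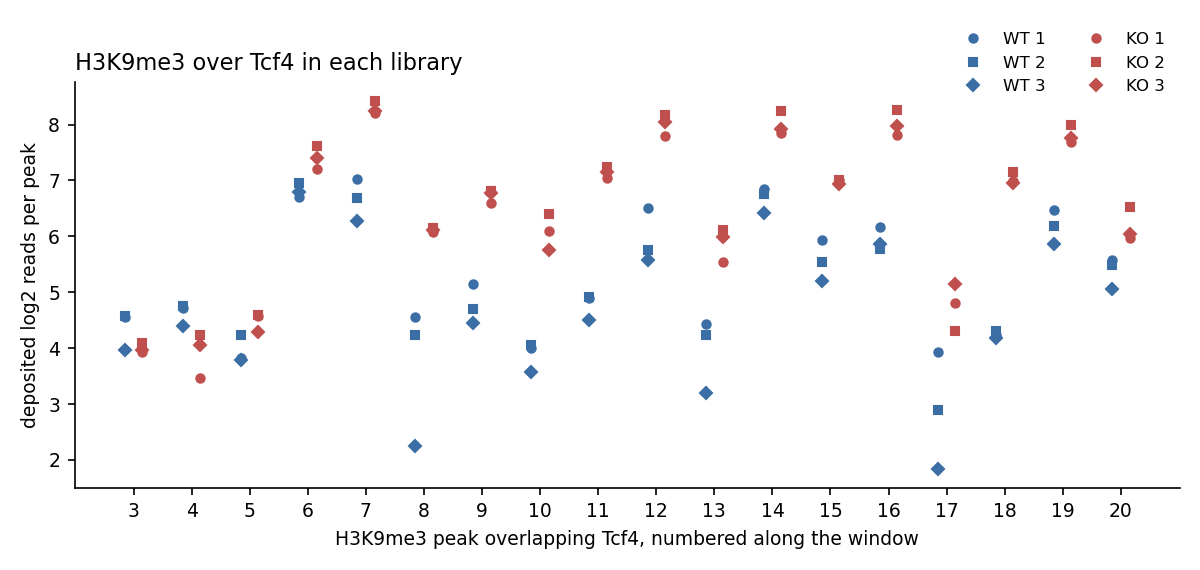
Deposited log2 reads per peak in each of the 3 WT (blue) and 3 KO (red) H3K9me3 libraries for the 18 peaks overlapping Tcf4, numbered along the window. In peaks 6 to 19 every KO library lies above every WT library, by at least 0.24, whereas the genotypes overlap in peak 3.

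Beyond 69528450 no H3K9me3 peak was listed for 148.2 kb. Of the 36 merged exon blocks of the gene, 9 lie before the stretch, 8 in it and 19 after it, so most of the exon blocks follow the stretch. Between peaks no value was analysed here and no change can be given. One peak remained near the 3′ end of the gene, at 69676651 to 69679200, over a coding exon. WT values were 5.58, 5.48 and 5.06 and KO values 5.97, 6.53 and 6.04, a change of 0.81 (SE 0.18). It was called higher, but not without WT replicate 3 (change 0.65) or without KO replicate 2 (change 0.63). With it, the called peaks spanned 248.1 kb, and without either library 97.4 kb. Only 5 of the 36 exon blocks overlapped any peak.

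None of the 8 flanking peaks of the window was called higher by limma, edgeR or DESeq2. On recovered reads, edgeR called 0.274% of all peaks higher and 2.74% lower, and DESeq2 called 0.0579% higher and 1.06% lower. At an unadjusted p under 0.05 none of the 8 was higher, against 4.07% of all peaks by limma, 3.53% by edgeR and 0.775% by DESeq2. At that threshold 4 of the 8 were lower by limma, 4 by edgeR and 3 by DESeq2, against 6.75%, 7.18% and 4% of all peaks. All KO libraries lay below all WT libraries in 4 of the 8, against 8.21% of all peaks. The upstream peaks, at 69188251 to 69190050 and 69316801 to 69322800, had changes of −0.12 (SE 0.19) and 0.01 (SE 0.10). Downstream, 290.2 kb without a peak separated the last peak of Tcf4 from the one at the end of Ccdc68. The 6 peaks there had changes between −1.32 and 0.12 with a median of −0.62. The −1.32 (SE 0.48) belonged to an uncalled 300 bp peak and rested on KO replicate 3, which had 2 reads. Its change was −0.52 without that library and −1.85, called lower, without KO replicate 1. The peak at the end of Ccdc68 (69969451 to 69970800) was called lower. Its values were 5.58, 5.54 and 5.63 in WT and 4.28, 4.87 and 4.82 in KO, a change of −0.93 (SE 0.21). It was not called by DESeq2 on recovered reads.

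The nearest uncalled peak past the gain, inside Rab27b (70013851 to 70014600), changed by 0.12 (SE 0.31), with overlapping libraries, and Rab27b encodes a small GTPase of vesicle secretion. Past Rab27b, 4 peaks lay close together in sequence that was 98.6% to 100.0% repeat-masked. One of them, at 70148251 to 70150200, was called lower, with 6.19, 5.96 and 6.07 in WT and 5.72, 5.06 and 5.32 in KO, a change of −0.71 (SE 0.18). That call was lost with DESeq2 and without WT replicate 1, WT replicate 3 or KO replicate 2. The nearest peaks outside the window lay 48.5 kb before and 14.9 kb after it and changed by −0.41 (SE 0.23) and −0.37 (SE 0.14), neither of them called.

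Reads were also summed over the gene. The 18 peaks together had 91.4, 81.0 and 64.4 RPM (reads scaled to the reads in peaks of the library) in WT and 208.0, 261.0 and 227.0 in KO. The means were 78.9 ± 13.6 and 232.0 ± 26.7 (SD, n = 3), a 2.94-fold difference. WT replicate 1 was the highest WT library in 10 of the 14 peaks of the stretch and KO replicate 2 the highest KO library in 13. Without any 1 library the summed log2 change, 1.57 in all libraries, lay between 1.43 and 1.68. The 8 flanking peaks together had 44.4, 42.6 and 42.8 RPM in WT and 34.9, 36.2 and 35.7 in KO.

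**Figure D3:**
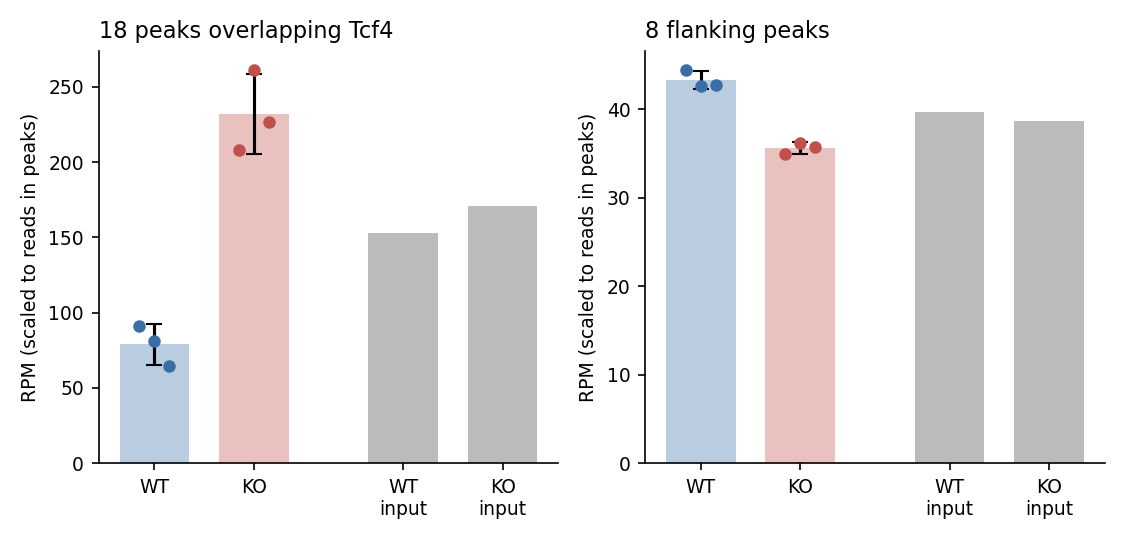
RPM (reads scaled to reads in H3K9me3 peaks), summed over the 18 peaks overlapping Tcf4 (left) and over the 8 flanking peaks (right). Points are libraries, coloured bars the mean with SD (n = 3) and grey bars the single inputs. Over Tcf4 the WT libraries (64.4 to 91.4) lie below the WT input (153.0) and the KO libraries (208.0 to 261.0) above the KO input (171.0).

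The inputs show on which level the gain started. Over the 18 peaks the WT input had 153.0 and the KO input 171.0 RPM, a log2 ratio of 0.16. Relative to the input of the same genotype, the summed signal was 0.598, 0.529 and 0.421 in WT and 1.22, 1.53 and 1.33 in KO. Every WT library was thus below its input and every KO library above it. Both scales are relative to reads in peaks, so 1 stands for the average peak and not for absence of the mark.

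Peak by peak, log2 ChIP over input in WT was below 0 in 13 of the 14 peaks of the stretch, with a median of −1.30, against −0.08 over all peaks. In 11 of the 14 the WT mean lay under the 1st percentile of all peaks. The lowest, −2.02 ± 0.22 (SD, n = 3), was at the peak from 69465451 to 69469200, with 33, 29 and 26 reads in WT beside 99 in its input. In KO the ratio was above 0 in all 14, with a median of 0.56 against −0.03 over all peaks. The exception in WT was the first peak of the stretch, at 0.24 ± 0.14. The 521 called-higher peaks elsewhere had medians of −0.49 in WT and 0.26 in KO and a median change of 0.82. Peaks were called on all libraries together, so a peak low in WT could enter the table through reads from KO.

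**Figure D4:**
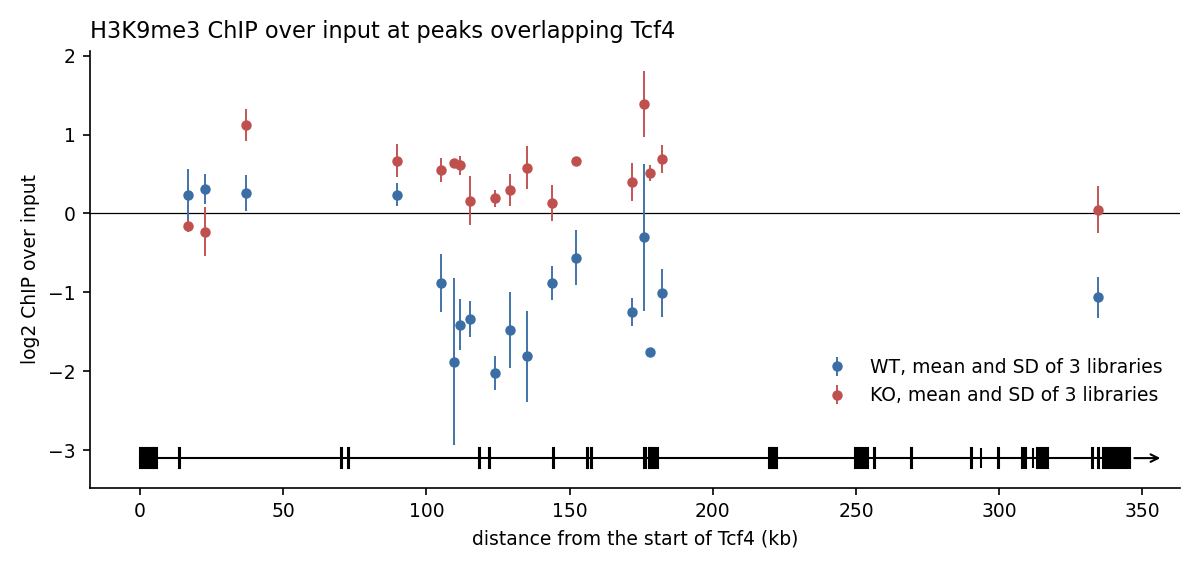
Log2 H3K9me3 ChIP over input of the same genotype (mean and SD of 3 libraries) at the 18 peaks overlapping Tcf4 against distance from the gene start in kb, with exons as black boxes. In the stretch between 87.7 and 185.1 kb, WT lies at a median of −1.30 and KO at 0.56.

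Peaks of the stretch had little repeat sequence. Between 10.1% and 24.2% of each was repeat-masked, with a median of 16.4% against 35.2% over all peaks. GC content was 38.8% to 46.8%, with a median of 43.65% against 39.6%. The called-higher peaks of the whole table, Tcf4 included, had medians of 18.1% masked and 43.2% GC. The KO input exceeded the WT input in 10 of the 14 peaks, by a median log2 ratio of 0.17 over all 14, and the ChIP change was larger than the input ratio in each. Whether masking or GC content had a part in the change was not tested.

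Among genes, Tcf4 had the highest count of called-higher peaks after Grip1 and Arl15. Grip1, a scaffold protein of receptor trafficking, had 64 of 93 peaks called higher with a median change of 0.73. Arl15, a small GTPase, had 48 of 50 with a median of 1.71 and had a median log2 ChIP over input of −1.03 in WT and 0.50 in KO, against −1.03 and 0.53 for the 18 Tcf4 peaks. In the table, 146 of 10147 genes with an overlapping peak had at least 1 called higher. Peaks with a change of 2 or more numbered 25 in all, 6 of them in Tcf4. The difference between these genes was not tested, because the same contrast chose them.

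Partners and inhibitors of Tcf4 were examined as a list of 16 genes of the E protein network. Peaks overlapping or up to 5 kb from the gene were found for 2 of them, the other E proteins Tcf3 and Tcf12, and numbered 3. By limma none of the 3 peaks was called in either direction, and edgeR and DESeq2 on recovered reads also called none. At an unadjusted p under 0.05, 2 of the 3 were lower by limma, 2 by edgeR and 2 by DESeq2, against 6.75%, 7.18% and 4% of all peaks. Their changes ran from −0.81 to 0.09 with a median of −0.57. The Tcf3 peak (chromosome 10, 80425051 to 80425950) had 5.02, 4.96 and 4.56 in WT and 3.79, 3.59 and 4.72 in KO, with KO replicate 3 among the WT values. It was called lower without KO replicate 3 (change −1.16). The limma count of 2 lower became 1 without KO replicate 1 or KO replicate 2.

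Of the 4 TCF/LEF genes, nuclear effectors of Wnt signalling, Lef1 had 1 peak and Tcf7l2 had 2. None of the 3 was called by limma, edgeR or DESeq2. At an unadjusted p under 0.05, 2 were lower by limma, 0 by edgeR and 0 by DESeq2, against 6.75%, 7.18% and 4% of all peaks. The changes were −0.02 (SE 0.38) for Lef1 and −0.58 (SE 0.25) and −0.61 (SE 0.30) for Tcf7l2. In both Tcf7l2 peaks KO replicate 1, the library with the fewest reads, had the lowest value. Without it the changes were −0.31 (SE 0.24) and −0.06 (SE 0.25). The limma count of 2 lower became 0 without KO replicate 1, WT replicate 1 or WT replicate 3, and 1 without WT replicate 2.

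H3K9me2 at the locus was tested in its own libraries. None of the 33 regions in the window passed an adjusted p under 0.05 in edgeR's quasi-likelihood test over all regions, where 0.00212% of regions passed. None passed an unadjusted p under 0.05 either, against 3.12% of all regions, and DESeq2 gave 0 on both counts, against 0.00637% and 1.43% of all regions. Changes ran from −0.36 to 0.71 with a median of 0.04. The 0.71 (SE 0.48) belonged to a 300 bp region in Rab27b with 8 to 69 reads per library, where KO replicate 3 had 69, and was −0.47 without that library.

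Inside Tcf4, a single H3K9me2 region was listed, at 69626401 to 69629100, 283.0 kb after the gene start. It lay beyond the stretch of H3K9me3 gain but before the called-higher peak near the 3′ end of the gene. It had 4.65, 4.33 and 4.00 CPM (reads scaled to effective library size) in WT and 4.71, 4.97 and 5.97 in KO. The KO values were all above the WT values, by little for KO replicate 1, and KO replicate 3 was the highest. The change was 0.27 (SE 0.14, edgeR adjusted p = 1), and 0.15 without KO replicate 3. On the sum scaled to reads in regions, the exact two-sided permutation test gave p = 0.1, the smallest p that 3 against 3 libraries can give. The KO input exceeded the WT input there by a log2 ratio of 0.45, more than the ChIP change. Regions 2.7 kb before the gene start and 1.4 kb after its end changed by 0.17 (SE 0.24) and −0.23 (SE 0.15).

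No H3K9me2 region overlapped the 97.35 kb of H3K9me3 gain. The stretch lay in a gap of 285.8 kb between neighbouring H3K9me2 regions, where the median gap over the genome was 10.2 kb and 1057 of 47044 gaps were longer. Thus 0 of the 18 H3K9me3 peaks of Tcf4 overlapped an H3K9me2 region, against 68.2% of all H3K9me3 peaks and 46.3% of the called-higher peaks elsewhere. Without a region, H3K9me2 in either genotype has no value over the gain, and a change of it there cannot be given.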

How the data were processed

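Whole crypt chromatin was profiled for H3K9me3 and H3K9me2, with 3 WT and 3 KO libraries and 1 input per genotype for each mark, grouped by sample title. Per the study's methods, 100 bp paired-end reads were trimmed (Trim Galore 0.4.4), mapped to GRCm38 (Bowtie2 2.3.2), filtered at MAPQ 20 and deduplicated, and MACS peaks were called on all ChIP libraries of a mark together. The deposited H3K9me3 values were log2 reads per peak matched in distribution over the ChIP libraries, which removes any shift over all peaks; deposited input values were unmatched log2 counts. The authors' H3K9me2 signal was a mean of read counts over the MACS peaks of a region, and multiplied by the number of peaks it lay within 0.00114 of whole reads. Deposited tables of peaks past the authors' own test held adjusted p-values, which were not used; the read counts deposited in the one for H3K9me2 served as a check.

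H3K9me3 was fitted with limma 3.58.1 (trend) over 212313 peaks and H3K9me2 with the edgeR 4.0.16 quasi-likelihood test (TMM) over 47065 regions, with genotype as the single term, two-sided, and Benjamini-Hochberg adjustment over the whole table. H3K9me3 reads were recovered from the rank of each value among the distinct values of its library. Repeating the transformation returned 99.97% of peaks in each library within 0.01 (log2); 3 of 156 values in the window were extrapolated. ChIP over input used reads per reads in peaks with 1 read added. Exons came from GENCODE M21, GC and masking from the GRCm38 genome, and nearest genes from the deposited annotation within 5 kb. The fits were tested on simulated data. R 4.3.3, DESeq2 1.42.0 and Python 3.11.15 were used.

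The window, its members and the gene lists were chosen with earlier results of these data known. Every Tcf4 peak was accounted for, and those named with values were the peaks with the largest and smallest change, the first and last called higher, the nearest uncalled on each side, those over an exon or start site, and called flanking peaks; others named were chosen after their values were seen. Alternatives were other tests, filters, thresholds, input subtraction, each library left out in turn and a replicate block. The 8 columns of standard deviations were not used, and DNA sequence and 1 gene of the E protein list are not reported here.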

Additional observations from a re-analysis of the deposited data

How the results depend on the processing

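The count of 15 Tcf4 peaks called higher was 14 or 15 in every alternative fit at the same threshold, and each peak called in those fits was among the 15. The median change over Tcf4, 1.75, was 1.62 with edgeR on recovered reads, 1.61 with the input ratio subtracted, and 1.46 to 1.98 with 1 library left out. The median outside Tcf4, −0.49, was −0.53 with edgeR and also with DESeq2, −0.44 with a filter on low values, −0.45 with the input ratio subtracted, and −0.64 to −0.30 with 1 library left out. The 2 calls of lower peaks became 0 with DESeq2, 1 at an adjusted p under 0.01, 0 at an absolute change of at least 1, and 1 to 3 with 1 library left out. The span of called-higher peaks fell to 83.8 kb at an absolute change of at least 1 and was 97.4 to 248.1 kb with 1 library left out. The uncalled Rab27b peak, at 0.12, turned to −0.12 without WT replicate 3 and to −0.15 without KO replicate 3, and reached 0.37 without WT replicate 1. The E protein list had 0 to 1 called peaks with 1 library left out, a check added after seeing the data, as were the deposited region names for H3K9me2 and TMM factors for its sum. No H3K9me2 region of the window was called in any alternative run.

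The labels do not say whether replicate numbers pair the samples. Deviations of same-numbered libraries from their group means had correlations of −0.01, 0.01 and −0.01 in the H3K9me3 libraries. The H3K9me2 libraries gave 0.18, 0.01 and 0.08. Libraries with different numbers were not correlated, so these values cannot settle whether the samples were paired. With a replicate block, 15 peaks were called higher and 2 lower, and the median over Tcf4 was 1.75. The block changed no call in the window for either mark. Over all regions it raised the H3K9me2 calls from 1 to 2 higher and 15 lower.

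Depth limits the short peaks most, where a library held as few as 2 reads. DESeq2 gave no adjusted p to some short peaks, among them those starting at 69365851, 69379951, 69519151 and 70013851. It could not call them, so the lack of a DESeq2 call there is not a test result. Peaks were defined on all libraries together, values outside peaks were not analysed here, and each input is a single library, so input differences have no replicate check.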
